A study of Mus musculus with 12 samples.

Results

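Retinoic acid genes were followed across 4 genotypes of mouse brain cortical endothelium, with *Aldh1a1* at the centre. The set held 9 of the 21638 genes in the deposited table: *Rdh10*, *Aldh1a1*, *Aldh1a2* and *Aldh1a3* of the synthesis route, *Cyp26b1* of the breakdown route, and the receptors *Rara*, *Rarb*, *Rarg* and *Rxra*. The genes were listed by function, and *Aldh1a1* was put first because its level differed between the Hdac2 and Ezh2 endothelial knockouts. That difference chose the gene, so it is described here without a test.

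The series held 12 RNA libraries in 4 groups of 3, from adult brain cortical endothelial cells isolated by FACS on CD31, a surface marker of endothelium, with cells bearing CD41 (platelets) or CD45 (leukocytes) left out. The groups were WT, Hdac2 ECKO (Hdac2lox/lox:Cdh5CreERT2, endothelial deletion of the histone deacetylase gene *Hdac2*), Ezh2 ECKO (Ezh2lox/lox:Cdh5CreERT2, endothelial deletion of the Polycomb methyltransferase gene *Ezh2*) and beta-catenin GOF (Ctnnb1lox/lox:Cdh5CreERT2, constitutive activation of beta-catenin). Cdh5CreERT2 is a Cre recombinase under the control of the VE-cadherin gene *Cdh5*, which endothelium throughout the body expresses, and it acts only once tamoxifen is given. Tamoxifen was given in 5 doses of 75 mg/kg and brains were taken 2 months later, but whether the WT mice received it, which alleles they carried, and the age of the mice beyond adult were not stated. Nothing in the labels says that the 3 libraries of a group came from separate mice, so p-values measure only the spread between these libraries, which may be technical.

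Retinoic acid is made from vitamin A in consecutive oxidations. Retinol is first converted to retinaldehyde, mainly by Rdh10, and retinaldehyde dehydrogenases (Aldh1a1, Aldh1a2, Aldh1a3) then convert retinaldehyde irreversibly to retinoic acid, which Cyp26 enzymes degrade. Retinoic acid binds nuclear receptors of the Rar family, which act on DNA as heterodimers with Rxr receptors. In the brain, retinoic acid is known for its part in development and in the maturation of the blood-brain barrier.

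*Aldh1a1* lies at chr19:20492715-20643465 on the plus strand (GRCm38, ENSMUSG00000053279.8) and has a close copy, *Aldh1a7*, beside it at chr19:20692953-20727562 on the minus strand. The coding sequences were identical at 91.6% of 1503 aligned bases, against 67.7% between *Aldh1a1* and *Aldh1a2* and 67.3% between *Aldh1a1* and *Aldh1a3*. The likeness also held just upstream of the start sites, where 94.0% of 100 aligned columns were identical over the 100 bases before them. Over 250 bases it was 66.0% (175 of 265 aligned columns). The stretch from 100 to 8 bases before each RefSeq start site (GRCm38.p6) is printed 5′ to 3′ on the strand of the gene to show how alike the 2 genes are next to their start sites, with the 6 bases of 93 that differ in capitals.
Aldh1a1, chr19:20601868-20601960, plus strand: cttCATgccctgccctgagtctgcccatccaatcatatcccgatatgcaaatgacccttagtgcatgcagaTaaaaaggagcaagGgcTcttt
Aldh1a7, chr19:20727564-20727656, minus strand: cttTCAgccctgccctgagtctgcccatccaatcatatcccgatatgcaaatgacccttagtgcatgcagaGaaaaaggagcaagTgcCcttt
Neither window overlaps an annotated exon. RefSeq also gives *Aldh1a1* a start site far upstream, at position 20492583, and counts per gene do not tell the start sites apart.

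The 2 genes can also share reads, because parts of their coding sequence are the same. Their longest identical coding run was 100 bases, at coding bases 757 to 856 of *Aldh1a1* counted from the start codon, and it is printed to show a stretch from which a read could be assigned to either gene.
Aldh1a1 and Aldh1a7 coding run: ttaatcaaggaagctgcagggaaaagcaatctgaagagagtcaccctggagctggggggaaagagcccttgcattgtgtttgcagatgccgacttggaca
Of the 1429 runs of 75 bases in the *Aldh1a1* coding sequence, 50 (3.5%) also occurred in *Aldh1a7*, and 0 occurred in *Aldh1a2* or *Aldh1a3*. How the authors counted reads that fit more than 1 gene is not given in the sources used here, so the split between *Aldh1a1* and *Aldh1a7* is uncertain to that extent.

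Among the receptors, *Rarb* is itself a textbook target of retinoic acid, through a repeat of a short receptor site in its promoter. A search of the 250 bases before each RefSeq start site, on both strands, for the letters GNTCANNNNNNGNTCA (a direct repeat with a spacing of 5) found 1 match among the 13 windows of the 7 members that had a window, and it was in *Rarb*. The 30 bases around it, 59 to 30 bases before the start site, lie within an annotated *Rarb* exon and are printed with the repeat in capitals.
Rarb, chr14:16575506-16575535, minus strand: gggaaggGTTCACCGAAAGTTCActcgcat
The same letters occurred in 0.776% of all 32851 windows. Repeats spaced by 2 (GNTCANNNGNTCA) and by 1 (GNTCANNGNTCA) occurred in 0.889% and 1.01% of all windows and in no member's window. The single site AGGTCA occurred in 14% of all windows and, of the members, in *Rarg* and *Rxra*. A match is a description of letters, not a shown binding site. *Aldh1a3* and *Rdh10* had no window.

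Library totals ran from 24781070 to 36109975 counts. Levels are given as CPM, the count per 1000000 of the TMM-scaled library total, as mean ± SD with n = 3, and levels of different genes are compared only as CPM per kilobase of gene length. The endothelial identity of the libraries was checked on 10 markers (such as *Pecam1*, *Cdh5* and *Cldn5*), all of which were detected in every group, with a summed level between 6793 and 9763 CPM. *Hdac2* itself stood at 129 ± 30.1 CPM in WT and 96.5 ± 15.2 in Hdac2 ECKO (log2 fold change -0.42 with SE 0.24 and edgeR adjusted p = 0.225). In beta-catenin GOF *Hdac2* was as low, at 96.2 ± 10.1 CPM (log2 fold change -0.43 with SE 0.24), so this difference does not check the deletion. *Ezh2* stood at 6.75 ± 3.52 CPM in WT and 8.92 ± 3.35 in the group labelled Ezh2 ECKO, with overlapping values (log2 fold change 0.40 with SE 0.46 and edgeR adjusted p = 0.615). Whole-gene RNA thus showed no fall of *Ezh2* to go with the label, so these are called the libraries labelled as Ezh2 ECKO throughout. Counts over the whole gene need not show a deletion of single exons, and *Ctnnb1* counts (654 ± 138 CPM in WT, 583 ± 109 in beta-catenin GOF) do not check the activated allele. In sorted bulk samples, fewer cells of a type and less RNA per cell cannot be told apart.

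*Aldh1a1* rose in the libraries labelled as Ezh2 ECKO and was the only one of the 8 members tested to pass the edgeR threshold in any contrast against WT. Its level was 5.69, 6.84 and 7.83 CPM in the WT libraries, 5.45, 4.44 and 4.44 for Hdac2 ECKO, 30.8, 32 and 26.3 for the libraries labelled as Ezh2 ECKO, with 5.39, 8.92 and 19.8 for beta-catenin GOF. All 3 libraries labelled as Ezh2 ECKO stood above the other 9. The Hdac2 ECKO libraries lay just under the WT range without overlap, and the beta-catenin GOF libraries were spread from the Hdac2 ECKO range to well above WT. In order of the mean, the groups ran from the libraries labelled as Ezh2 ECKO (29.7 ± 3.03 CPM) through beta-catenin GOF (11.4 ± 7.5) and WT (6.79 ± 1.07) to Hdac2 ECKO (4.77 ± 0.584).

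**Figure D1:**
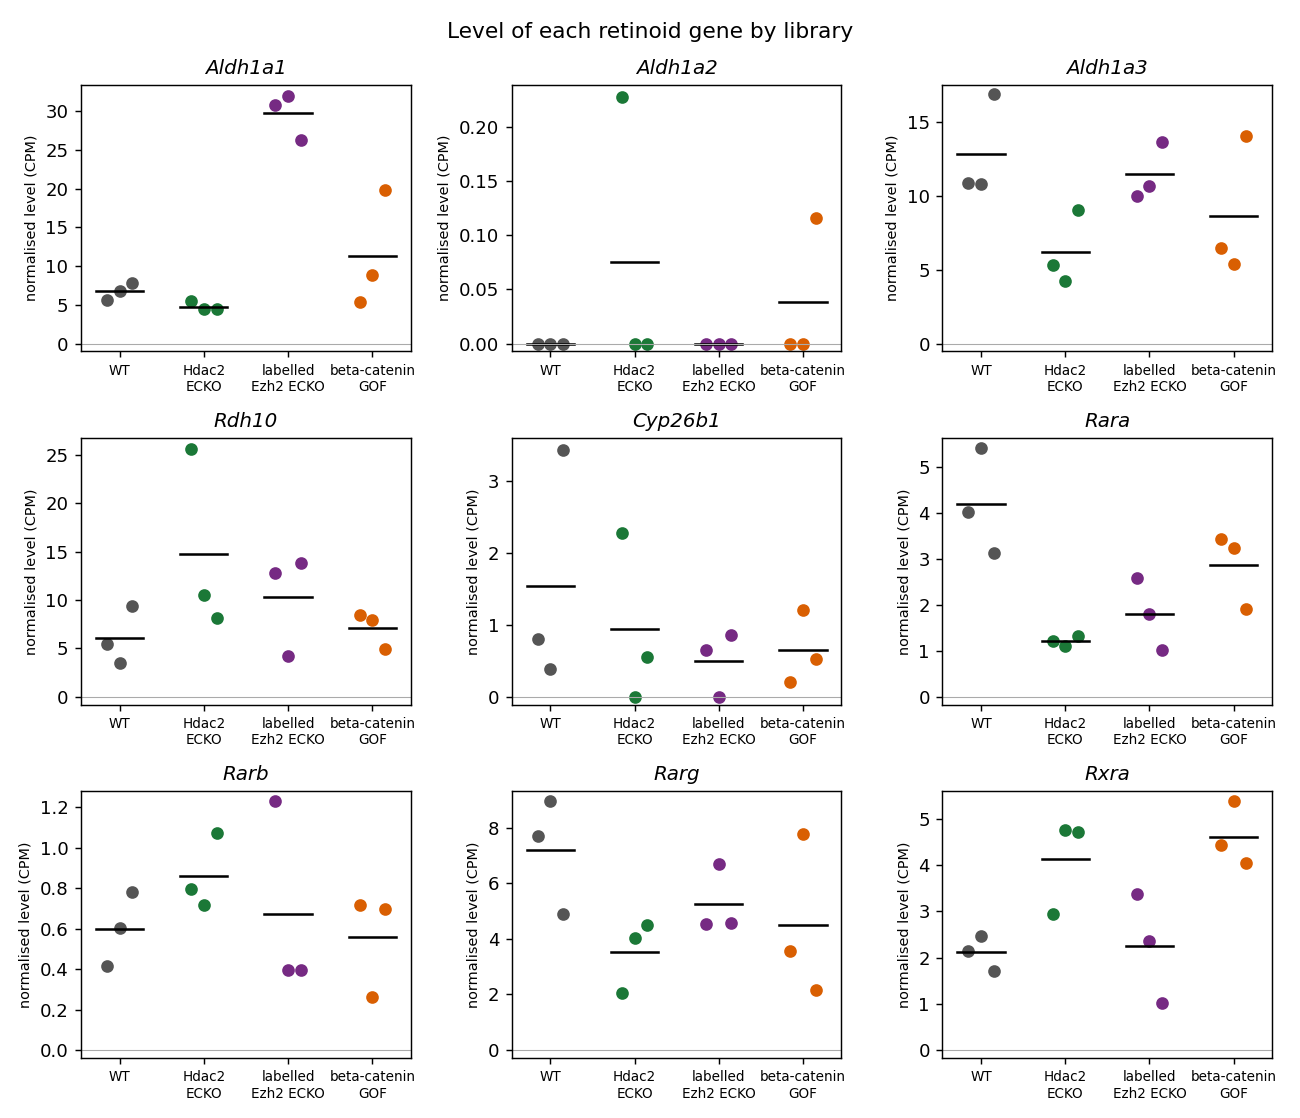
Normalised level (CPM, linear axes that differ between panels) of the 9 retinoid genes in each of 12 libraries, in 4 groups of 3, with points for libraries in the order 1 to 3 and a line at the group mean. The 3 libraries labelled as Ezh2 ECKO sit between 26.3 and 32 for Aldh1a1, above the other 9, while Aldh1a2 is at 0 in 10 libraries.

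Against WT, *Aldh1a1* was 4.38-fold higher in the libraries labelled as Ezh2 ECKO (log2 fold change 2.13 with SE 0.40 and edgeR adjusted p = 0.0448). The libraries labelled as Ezh2 ECKO also took part in the contrast that chose the gene, so this p is not independent evidence. In that contrast the gene stood 6.22-fold lower in Hdac2 ECKO than in the libraries labelled as Ezh2 ECKO (log2 fold change -2.64 with SE 0.40).

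In Hdac2 ECKO against WT, *Aldh1a1* did not pass (log2 fold change -0.51 with SE 0.39 and edgeR adjusted p = 0.371). In beta-catenin GOF against WT, the only one of these contrasts with WT whose mutant libraries the choice did not use, it did not pass either (log2 fold change 0.74 with SE 0.38 and edgeR adjusted p = 0.858). That value rested on 1 library: without beta-catenin GOF replicate 3, at 19.8 CPM, it was 0.08. Between neighbours in the order, beta-catenin GOF stood below the libraries labelled as Ezh2 ECKO without overlap, but the difference did not pass (log2 fold change -1.39 with SE 0.39 and edgeR adjusted p = 0.247). The difference between beta-catenin GOF and Hdac2 ECKO did not pass (log2 fold change 1.25 with SE 0.39 and edgeR adjusted p = 0.169), and it was 0.58 without beta-catenin GOF replicate 3. Both of these contrasts between mutants used libraries that the choice of the gene used, so their p-values are not independent evidence.

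The rise against WT passed in all 9 alternative analyses that kept every library, with a log2 fold change between 2.00 and 2.17 and adjusted p-values from 1.3e-05 (edgeR with no filter) to 0.0457 (edgeR with library size alone). These fits reuse the libraries that took part in the choice of the gene. They show how the value depends on the processing and are not independent evidence for the rise. With 1 library left out the fold stayed between 2.02 and 2.25 but the edgeR call was lost in 4 of 6 fits, with adjusted p = 0.142 without WT replicate 1, 0.156 without WT replicate 2, 0.12 without Ezh2 ECKO replicate 1 and 0.104 without Ezh2 ECKO replicate 3.

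**Figure D2:**
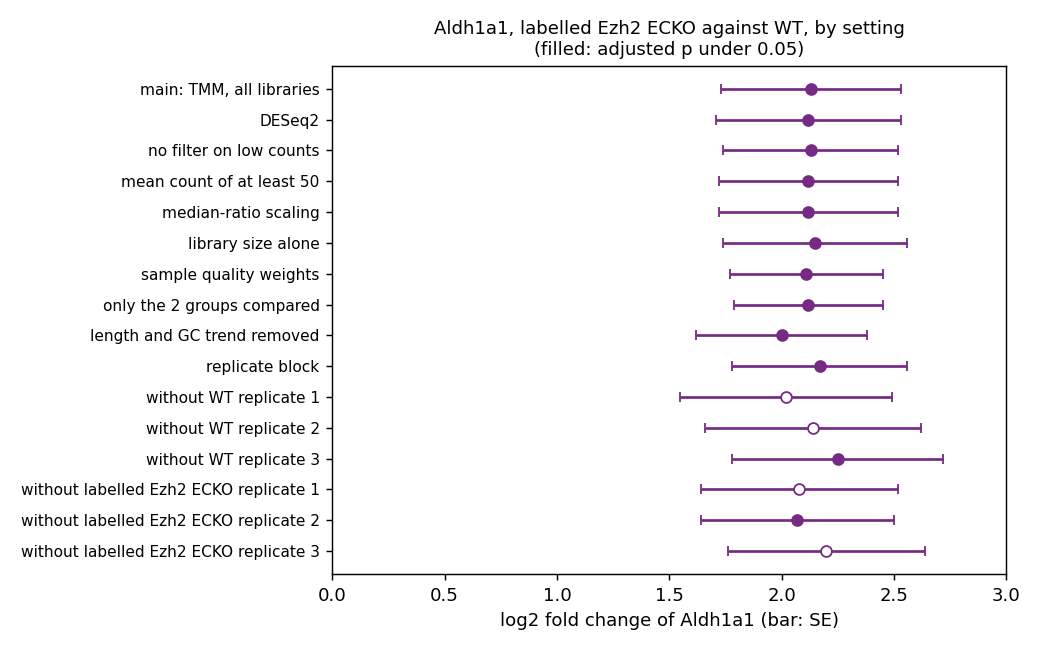
Log2 fold change of Aldh1a1 in the libraries labelled as Ezh2 ECKO against WT (horizontal axis, bars are the SE) under each analysis (vertical axis), filled where the adjusted p was under 0.05. All 16 values lie between 2.00 and 2.25, and 4 of the 6 fits that leave out a library are unfilled. The libraries labelled as Ezh2 ECKO also took part in the contrast that chose the gene.

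The share of all 12577 tested genes called in each contrast sets the background for the members. In the libraries labelled as Ezh2 ECKO against WT, 1.03% of tested genes were called, and 1 of the 8 members tested was, which was the gene put first for its level in these libraries. There 2 members were under an unadjusted p of 0.05, DESeq2 called 1 (*Aldh1a1*) and limma with sample quality weights called 3 (*Aldh1a1*, *Rara*, *Rdh10*). Of all tested genes, 3111 were under that unadjusted p, DESeq2 called 1280 and limma with these weights called 3743. In Hdac2 ECKO against WT, 9.2% of tested genes were called, and by edgeR 0 of 8 members were, with 3 members under an unadjusted p of 0.05. DESeq2 called 2 members there (*Aldh1a3*, *Rara*) and limma with sample quality weights called 3 (*Rara*, *Rarg*, *Rdh10*). Of all tested genes, 4161 were under that unadjusted p, DESeq2 called 2553 and limma with these weights called 5374. In beta-catenin GOF against WT, 0% of tested genes were called by edgeR, and of the members 0 were called by edgeR, DESeq2 or limma with sample quality weights, with 1 member under an unadjusted p of 0.05. Of all tested genes, 763 were under that unadjusted p, DESeq2 called 38 and limma with these weights called 26. In beta-catenin GOF against Hdac2 ECKO, 0.0716% of tested genes were called, and in beta-catenin GOF against the libraries labelled as Ezh2 ECKO 0.0636% were. By edgeR, 0 members were called in either, with 2 and 1 members under an unadjusted p of 0.05. DESeq2 called 0 in both, and limma with sample quality weights called *Aldh1a1* in each. Both contrasts used libraries that also took part in the contrast that chose *Aldh1a1*, so these calls are not independent evidence. Of all tested genes, 2658 and 1655 were under that unadjusted p, DESeq2 called 621 and 144, and limma with these weights called 3339 and 1466. In Hdac2 ECKO against the libraries labelled as Ezh2 ECKO, 0.0239% of tested genes were called. *Aldh1a1*, chosen on that contrast, is not counted there, and of the other 7 members tested 0 were called by edgeR, DESeq2 or limma with sample quality weights, with 1 under an unadjusted p of 0.05. Of all tested genes, 1030 were under that unadjusted p, DESeq2 called 98 and limma with these weights called 11.

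**Figure D3:**
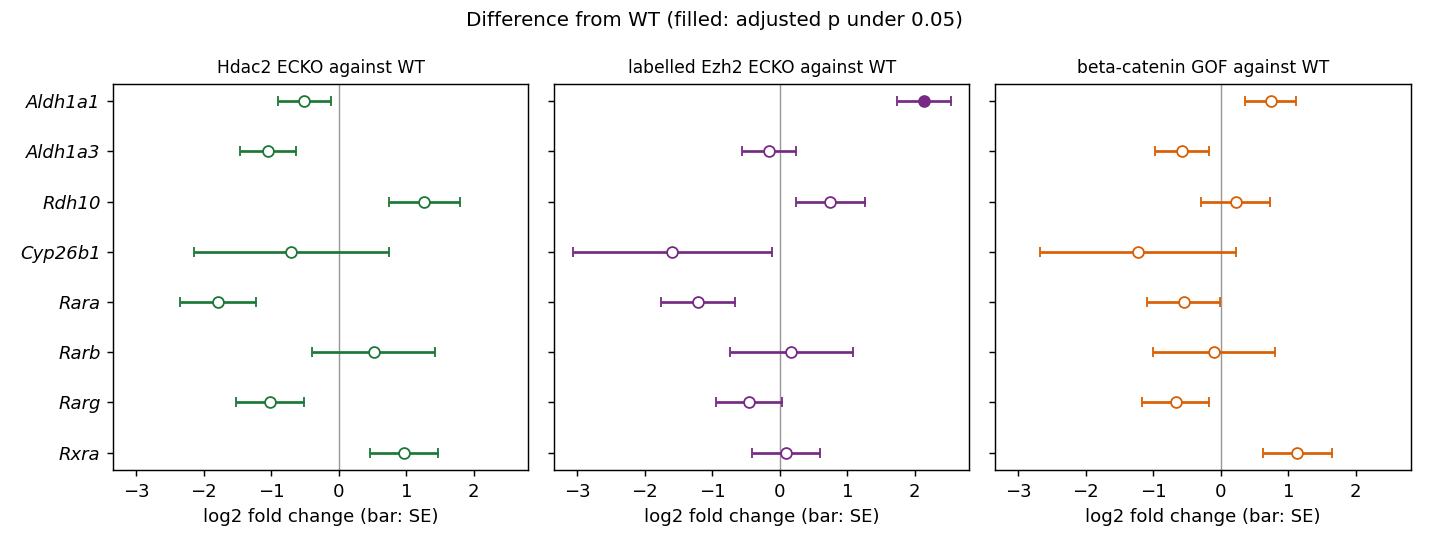
Log2 fold change against WT (horizontal axis, bars are the SE) of the 8 tested members in Hdac2 ECKO, the libraries labelled as Ezh2 ECKO and beta-catenin GOF, filled where the edgeR adjusted p was under 0.05. The only filled point is Aldh1a1 at 2.13 in the libraries labelled as Ezh2 ECKO.

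*Rdh10* (chr1:16105774-16133734, plus strand), the retinol dehydrogenase of the first step, was detected in all 12 libraries and differed mostly by library. Its level was 5.48, 3.48 and 9.4 CPM in WT, 25.6, 10.5 and 8.18 for Hdac2 ECKO, 12.8, 4.25 and 13.8 for the libraries labelled as Ezh2 ECKO, with 8.46, 7.91 and 4.99 for beta-catenin GOF. One Hdac2 ECKO library stood far above the other 11, and every mutant group overlapped WT. The log2 fold change against WT was 1.27 (SE 0.52 and edgeR adjusted p = 0.107) in Hdac2 ECKO, 0.75 (SE 0.51 and edgeR adjusted p = 0.379) in the libraries labelled as Ezh2 ECKO and 0.22 (SE 0.51 and edgeR adjusted p = 0.975) in beta-catenin GOF. The Hdac2 ECKO difference passed with no filter on low counts and with sample quality weights, and was 0.61 (edgeR adjusted p = 0.5) without Hdac2 ECKO replicate 1, the highest library. With sample quality weights the difference in the libraries labelled as Ezh2 ECKO passed as well (log2 fold change 1.44 with limma adjusted p = 0.0315).

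*Aldh1a2* (chr9:71215789-71296243, plus strand), the main retinaldehyde dehydrogenase of the embryo, was close to undetected. It had 0 counts in 10 of 12 libraries, 6 in Hdac2 ECKO replicate 1 and 4 in beta-catenin GOF replicate 3, so it was not tested. At this depth a count of 0 allows a level of up to 0.0791 to 0.118 CPM, depending on the library (the worth of 3 counts), for counting error only. That limit takes each count as independent. The values behaved as counts of mates, which come in pairs from the same fragment, so the limit is too low.

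*Aldh1a3* (chr7:66390890-66427517, minus strand), the third retinaldehyde dehydrogenase, had the highest mean level per kilobase of the 9 genes in WT. Its level was 10.9, 10.8 and 16.9 CPM in WT, 5.3, 4.24 and 9.04 for Hdac2 ECKO, 10, 10.7 and 13.7 for the libraries labelled as Ezh2 ECKO, with 6.45, 5.38 and 14.1 for beta-catenin GOF. The Hdac2 ECKO libraries were all below WT, while the other mutant groups overlapped it. The difference in Hdac2 ECKO did not pass by edgeR (log2 fold change -1.05 with SE 0.41 and adjusted p = 0.0935) and passed by DESeq2. The log2 fold change of *Aldh1a3* in the libraries labelled as Ezh2 ECKO, where *Aldh1a1* rose, was -0.16 (SE 0.40 and edgeR adjusted p = 0.836), and in beta-catenin GOF it was -0.58 (SE 0.40 and edgeR adjusted p = 0.91).

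Per kilobase, the more abundant retinaldehyde dehydrogenase differed between groups. The gene lengths used were 4937 bases for *Aldh1a1* and 4617 for *Aldh1a3*, and the order of the genes depends on these lengths. In WT *Aldh1a3* stood at 2.79 ± 0.765 and *Aldh1a1* at 1.37 ± 0.217 CPM per kilobase. The order was turned in the libraries labelled as Ezh2 ECKO, with *Aldh1a1* at 6.02 ± 0.615 and *Aldh1a3* at 2.49 ± 0.428. Both orders held in each of the 3 libraries of those groups. In Hdac2 ECKO the values were 1.34 ± 0.547 for *Aldh1a3* and 0.967 ± 0.118 for *Aldh1a1*, and in beta-catenin GOF they were 1.87 ± 1.02 and 2.3 ± 1.52, so in these groups the 2 genes lay within the spread of each other.

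*Cyp26b1* (chr6:84571414-84593908, minus strand), which inactivates retinoic acid, was near the limit of detection. Its level was 0.798, 0.38 and 3.42 CPM in WT, 2.27, 0 and 0.554 for Hdac2 ECKO, 0.648, 0 and 0.862 for the libraries labelled as Ezh2 ECKO, with 0.205, 1.21 and 0.523 for beta-catenin GOF. All groups overlapped, and the highest value was a single WT library. The log2 fold changes against WT were -0.70 (SE 1.44 and edgeR adjusted p = 0.761), -1.59 (SE 1.47 and edgeR adjusted p = 0.524) and -1.23 (SE 1.45 and edgeR adjusted p = 0.95) in the same order of mutants, and their standard errors were too wide to set a direction.

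The receptors had low to modest levels, and in Hdac2 ECKO *Rara* had the largest difference from WT of the 5 receptors tested. *Rara* (chr11:98927818-98974942, plus strand), which encodes the retinoic acid receptor alpha, was at 4.02, 5.41 and 3.13 CPM in WT, 1.21, 1.11 and 1.32 for Hdac2 ECKO, 2.59, 1.81 and 1.01 for the libraries labelled as Ezh2 ECKO, with 3.44, 3.24 and 1.92 for beta-catenin GOF. All 6 libraries of Hdac2 ECKO and labelled Ezh2 ECKO were below the lowest WT library, and beta-catenin GOF overlapped WT. The difference in Hdac2 ECKO was 3.45-fold and just missed the threshold (log2 fold change -1.79 with SE 0.56 and edgeR adjusted p = 0.0545). It passed in 4 of the 9 alternatives that kept every library, among them DESeq2 and a mean count of at least 50, with adjusted p-values between 0.00462 and 0.0948. In the libraries labelled as Ezh2 ECKO the log2 fold change was -1.21 (SE 0.55 and edgeR adjusted p = 0.186), and in beta-catenin GOF it was -0.55 (SE 0.54 and edgeR adjusted p = 0.939).

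*Rarg* (chr15:102234938-102257517, minus strand), the gamma receptor, had the highest mean level per kilobase of the 4 receptors in every group. Its level was 7.7, 8.96 and 4.88 CPM in WT, 2.04, 4.04 and 4.5 for Hdac2 ECKO, 4.54, 6.69 and 4.56 for the libraries labelled as Ezh2 ECKO, with 3.55, 7.78 and 2.15 for beta-catenin GOF. The Hdac2 ECKO libraries lay below WT and the others overlapped it. No contrast against WT passed, with a log2 fold change of -1.02 (SE 0.50 and edgeR adjusted p = 0.163) in Hdac2 ECKO, -0.45 (SE 0.49 and edgeR adjusted p = 0.596) in the libraries labelled as Ezh2 ECKO and -0.67 (SE 0.49 and edgeR adjusted p = 0.911) in beta-catenin GOF.

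*Rarb* (chr14:16430839-16819156, minus strand), whose promoter repeat is printed above, had between 10 and 38 counts per library. Its level was 0.416, 0.601 and 0.783 CPM in WT, 0.794, 0.717 and 1.07 for Hdac2 ECKO, 1.23, 0.393 and 0.395 for the libraries labelled as Ezh2 ECKO, with 0.716, 0.264 and 0.697 for beta-catenin GOF. All mutant groups overlapped WT. The log2 fold change in the libraries labelled as Ezh2 ECKO, where *Aldh1a1* rose, was 0.17 (SE 0.91 and edgeR adjusted p = 0.929), and it was 0.52 (SE 0.91 and edgeR adjusted p = 0.718) in Hdac2 ECKO and -0.10 (SE 0.91 and edgeR adjusted p = 0.997) in beta-catenin GOF. *Rarb* overlaps *Top2b* on the opposite strand, which stood at 82.2 ± 13.9 CPM in WT, and the use of strand is not given in the sources used here, so the counts of *Rarb* are uncertain.

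*Rxra* (chr2:27676440-27762957, plus strand), an obligate partner of the Rar receptors, was the only member whose values lay above WT without overlap in both Hdac2 ECKO and beta-catenin GOF, which share the same WT libraries. Its level was 2.15, 2.47 and 1.71 CPM in WT, 2.95, 4.76 and 4.71 for Hdac2 ECKO, 3.37, 2.36 and 1.01 for the libraries labelled as Ezh2 ECKO, with 4.43, 5.38 and 4.04 for beta-catenin GOF. The libraries labelled as Ezh2 ECKO spread across the WT range. None passed: the log2 fold change was 0.97 (SE 0.50 and edgeR adjusted p = 0.189) in Hdac2 ECKO, 1.13 (SE 0.51 and edgeR adjusted p = 0.801) in beta-catenin GOF and 0.09 (SE 0.50 and edgeR adjusted p = 0.931) in the libraries labelled as Ezh2 ECKO.

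Counted over the 8 members tested, Hdac2 ECKO had 1 member above WT without overlap (*Rxra*) and 4 below (*Aldh1a1*, *Aldh1a3*, *Rara*, *Rarg*). Of all tested genes, 19.5% lay above and 18.2% below WT without overlap in that contrast. In the libraries labelled as Ezh2 ECKO 1 member was above (*Aldh1a1*) and 1 below (*Rara*), against 11% and 10.9% of all tested genes. In beta-catenin GOF 1 was above (*Rxra*) and 0 below, against 6.83% and 5.87%. The median log2 fold change of the members against WT was -0.60 in Hdac2 ECKO, where that of all tested genes was 0.10. It was -0.04 in the libraries labelled as Ezh2 ECKO (all genes 0.05) and -0.33 in beta-catenin GOF (all genes 0.01).

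The wider retinoid pathway was taken from lists of 86 genes, the members included, all in the table, of which 61 were tested. Beside the members, 53 genes were tested. By edgeR 1 fell in Hdac2 ECKO, 1 fell in the libraries labelled as Ezh2 ECKO and 0 were called in beta-catenin GOF, while 19, 15 and 5 had an unadjusted p under 0.05. DESeq2 called 10, 10 and 0 of them, and limma with sample quality weights 17, 18 and 0. Of all 12577 tested genes, 4161, 3111 and 763 had an unadjusted p under 0.05 in the same contrasts. Over all tested genes DESeq2 called 2553, 1280 and 38, and limma with sample quality weights 5374, 3743 and 26. Both pathway genes that fell by edgeR encode alcohol dehydrogenases, a family that can oxidise retinol. *Adh5*, better known as the glutathione-dependent formaldehyde dehydrogenase, fell from 197 ± 16.6 CPM in WT to 86 ± 15.1 in Hdac2 ECKO (log2 fold change -1.19 with SE 0.29 and edgeR adjusted p = 0.0342). Its call held in all 9 alternatives that kept every library, while the edgeR adjusted p rose to 0.128 without WT replicate 1, 0.0998 without WT replicate 2, 0.16 without Hdac2 ECKO replicate 1 and 0.141 without Hdac2 ECKO replicate 3. *Adh1* fell from 32.5 ± 10.5 CPM in WT to 11.1 ± 2.24 in the libraries labelled as Ezh2 ECKO (log2 fold change -1.54 with SE 0.34 and edgeR adjusted p = 0.0478). That call held in 5 of the 9 alternatives, and the adjusted p was 0.0523 with the trend on length and GC content removed. It was lost with edgeR adjusted p = 0.175 without WT replicate 1, 0.16 without WT replicate 2, 0.15 without Ezh2 ECKO replicate 1 and 0.142 without Ezh2 ECKO replicate 3.

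Of the genes for retinol uptake, storage and transport, 6 of 10 were tested and edgeR called 0 against WT in any mutant. In Hdac2 ECKO, the libraries labelled as Ezh2 ECKO and beta-catenin GOF, 2, 3 and 0 of them had an unadjusted p under 0.05, and the same numbers were called by DESeq2. Over all 12577 tested genes, 4161, 3111 and 763 were under that p, and DESeq2 called 2553, 1280 and 38. *Ttr* stood at 32.8 and *Rbp7*, which encodes a cellular retinol-binding protein, at 9.09 CPM per kilobase. *Ttr*, transthyretin, carries retinol-binding protein in plasma and is also the leading product of choroid plexus. It ranged from 0 to 153 CPM per kilobase between libraries.

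The oxidoreductase list had 11 of 15 genes tested and was led by *Rdh5* (104), *Rdh14* (29.4) and *Adh5* (26.6 CPM per kilobase), far above *Rdh10* at 2.3. The 2 falls above were its only calls by edgeR. Among the carriers of retinoic acid within the cell, *Fabp5* stood at 0.375, *Crabp2* at 0.033 and *Crabp1* at 0.00786 CPM per kilobase. Of the other breakdown enzymes, *Cyp26a1* stood at 0.105 and *Cyp26c1* at 0.00342 CPM per kilobase.

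Of 16 listed classical targets of retinoic acid 7 were tested, and edgeR called 0 of them in the libraries labelled as Ezh2 ECKO against WT. There 3 had an unadjusted p under 0.05, and DESeq2 and limma with sample quality weights each called 3. Of all 12577 tested genes, 3111 were under that p in this contrast, DESeq2 called 1280 and limma with these weights called 3743. Of the 7, 1 had a log2 fold change above 0. The list median was -1.59, where that of all tested genes was 0.05. It is the value of *Cyp26b1*, whose standard error of 1.47 sets no direction for that gene. With the trend on length and GC content removed, the list median was -1.34 and that of all tested genes 0.00. *Dhrs3*, which reduces retinaldehyde back to retinol, stood at 17.6 ± 7.63 CPM in WT and 5.24 ± 4.18 in the libraries labelled as Ezh2 ECKO (log2 fold change -1.75 with SE 0.60 and edgeR adjusted p = 0.103). *Stra6*, the retinol uptake receptor, named here after its values were seen, stood at 28.5 ± 16.4 and 8.56 ± 0.988 CPM (log2 fold change -1.73 with SE 0.49 and edgeR adjusted p = 0.0724). *Tgm2*, transglutaminase, was 27.5 ± 4.52 and 24.2 ± 3.15 CPM (log2 fold change -0.19 with SE 0.26 and edgeR adjusted p = 0.689). In Hdac2 ECKO the list median was -0.66 and in beta-catenin GOF it was -0.18, with 0 called by edgeR in each, 2 and 1 under an unadjusted p of 0.05, and 2 and 0 called by DESeq2. Over all tested genes, 4161 and 763 were under that p in these contrasts, and DESeq2 called 2553 and 38.

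In the remaining groups edgeR called 0 genes in any contrast against WT beyond the members. Of the receptors 5 of 6 were tested, and *Rxrb*, the most abundant at 1.69 CPM per kilobase, stood at 10.6 ± 1.88 CPM in WT, against 4.84 ± 0.366 in Hdac2 ECKO and 4.57 ± 1.9 among libraries labelled as Ezh2 ECKO (edgeR adjusted p = 0.0705 and 0.0945). Other partners of Rxr (9 of 10 tested) were led by the orphan receptors *Nr4a2* (31.2) and *Nr4a1* (28.5) and by the thyroid hormone receptor *Thra* (6.61 CPM per kilobase), with a list median of 0.06 for Hdac2 ECKO, 0.38 for the libraries labelled as Ezh2 ECKO and 0.23 for beta-catenin GOF. The coregulators (12 of 12 tested), led by *Ncor1* (10.8), *Crebbp* (6.58) and *Med1* (5.34 CPM per kilobase), had 7, 4 and 1 genes under an unadjusted p of 0.05, with 4, 2 and 0 called by DESeq2. Over all 12577 tested genes, 4161, 3111 and 763 were under that p, and DESeq2 called 2553, 1280 and 38. The coregulator medians of 0.61, 0.31 and 0.19 became -0.04, -0.06 and 0.01 with the trend on gene length and GC content removed. Other aldehyde dehydrogenases (12 of 15 tested), led by *Aldh9a1* (8.61), *Aldh6a1* (7.89) and *Aldh2* (5.6 CPM per kilobase), had medians of 0.13, 0.10 and 0.24.

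*Aldh1a7*, the copy of *Aldh1a1*, was far less abundant and did not pass in any contrast against WT. Its level was 0.624, 0.57 and 0.57 CPM in WT, 0.0757, 0.522 and 0.45 for Hdac2 ECKO, 0.389, 2.28 and 5.82 for the libraries labelled as Ezh2 ECKO, with 1.43, 0.211 and 3.08 for beta-catenin GOF. The libraries labelled as Ezh2 ECKO ran from below WT to far above it, unlike those of *Aldh1a1*. The log2 fold change there was 2.26 (SE 1.08 and edgeR adjusted p = 0.209). It was 1.15 (edgeR adjusted p = 0.617) without Ezh2 ECKO replicate 3 and 1.25 (limma adjusted p = 0.425) with sample quality weights.

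The other genes within 1 Mb of *Aldh1a1* were examined after its values were known. The table held 6, of which 5 were tested and 0 were called against WT. *Anxa1*, which encodes annexin A1 and lies just upstream, stood at 60.6 CPM in WT and 130 in the libraries labelled as Ezh2 ECKO (log2 fold change 1.10, edgeR adjusted p = 0.0818). In the same contrast *Zfand5* was at 0.16, *Gda* at 0.02 and *1110059E24Rik* at 0.53, with edgeR adjusted p-values of 0.742, 0.985 and 0.151.

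**Figure D4:**
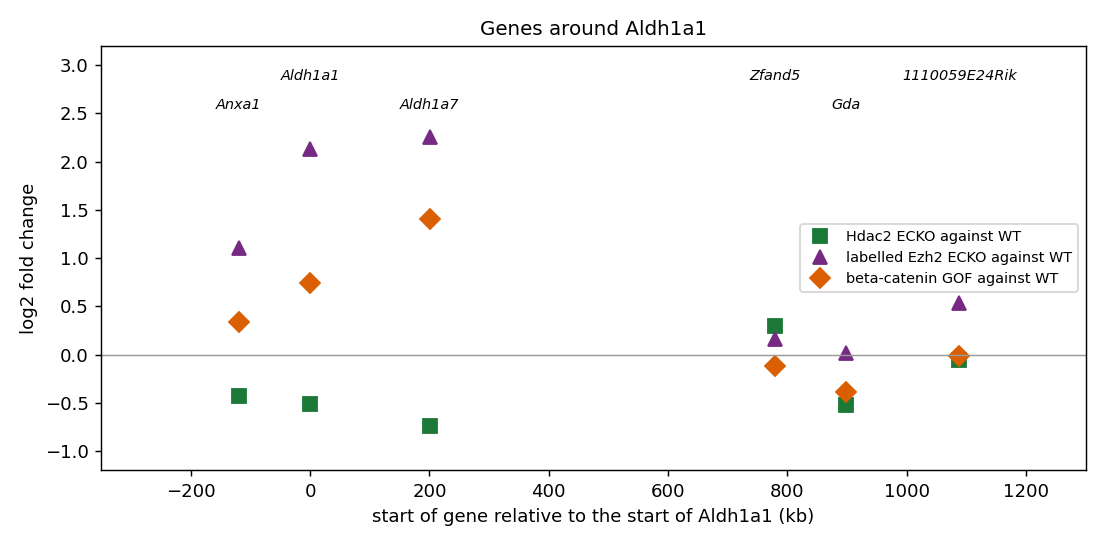
Log2 fold change against WT (vertical axis) of Aldh1a1 and the 5 tested genes within 1 Mb of it, placed by the distance of each gene's start from that of Aldh1a1 (horizontal axis, kb), for the 3 mutants. In the libraries labelled as Ezh2 ECKO (triangles), Anxa1, Aldh1a1 and Aldh1a7 lie at 1.10, 2.13 and 2.26, and the 3 genes farther away between 0.02 and 0.53.

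Markers of other cell types varied between libraries and are given beside *Aldh1a1*. The 5 markers of choroid plexus and ependyma summed to between 0.854 and 2.09 CPM in WT, 2.19 and 111 for Hdac2 ECKO, 23.7 and 182 for the libraries labelled as Ezh2 ECKO, with 0.448 and 33.6 for beta-catenin GOF, with *Foxj1* at 0 in every library and *Folr1* at 0 in beta-catenin GOF. On average *Ttr* made up most of these sums. Its level was 0.816 ± 0.256 CPM in WT and 46.2 ± 56.8 in Hdac2 ECKO. In the libraries labelled as Ezh2 ECKO it was 97.4 ± 79.8, and in beta-catenin GOF 11.1 ± 19.3. Of the 5 markers 2 were tested, and 1 of these had a log2 fold change above 0 in each contrast against WT. In libraries 1 to 3 labelled as Ezh2 ECKO, the 5-marker sums of 89.8, 182 and 23.7 CPM stood beside *Aldh1a1* at 30.8, 32 and 26.3. For Hdac2 ECKO the sums were 2.19, 111 and 29 CPM, beside 5.45, 4.44 and 4.44. For beta-catenin GOF the sums were 33.6, 0.448 and 0.726 CPM, beside 5.39, 8.92 and 19.8. In WT the sums were 1.39, 2.09 and 0.854 CPM, beside 5.69, 6.84 and 7.83. The 8 erythrocyte and platelet markers summed to between 36136 and 61395 CPM in WT, 406 and 21698 for Hdac2 ECKO, 2530 and 6712 for the libraries labelled as Ezh2 ECKO, with 528 and 35401 for beta-catenin GOF, and 1 of them fell in Hdac2 ECKO. The 10 pericyte and smooth muscle markers summed to between 67.6 and 124 CPM in WT, 130 and 324 for Hdac2 ECKO, 57.9 and 76.4 for the libraries labelled as Ezh2 ECKO, with 122 and 383 for beta-catenin GOF, and 4 of the 10 rose in Hdac2 ECKO. The 8 astrocyte markers summed to between 41.5 and 55.5 CPM in WT, 57.7 and 89.1 for Hdac2 ECKO, 56.8 and 91.9 for the libraries labelled as Ezh2 ECKO, with 40.7 and 64.1 for beta-catenin GOF, where *Aqp4* was at 0. The Hdac2 ECKO libraries and those labelled as Ezh2 ECKO were all above WT for astrocyte markers. The 8 neuron markers summed to between 160 and 301 CPM in WT, 63.6 and 112 for Hdac2 ECKO, 178 and 422 for the libraries labelled as Ezh2 ECKO, with 118 and 248 for beta-catenin GOF. The 8 markers of microglia and leukocytes summed to at most 13.5 CPM in any library, with *Tmem119* at 0 in Hdac2 ECKO and *Cx3cr1*, *Aif1*, *Tmem119* and *Itgam* at 0 in beta-catenin GOF. For these the range was 4.88 to 5.59 CPM in WT, 3.2 to 9.27 for Hdac2 ECKO, 5.12 to 13.5 for the libraries labelled as Ezh2 ECKO, with 3.31 to 4.67 for beta-catenin GOF. The 6 markers of the oligodendrocyte lineage summed to between 2.6 and 69.5 CPM in WT, 8.59 and 23.1 for Hdac2 ECKO, 6.53 and 29.9 for the libraries labelled as Ezh2 ECKO, with 2.11 and 11.8 for beta-catenin GOF, and *Mog* was at 0 in the last 2 groups. The 10 fibroblast markers were low in every group, at 6.17 to 8.6 CPM in WT, 8.06 to 13.5 for Hdac2 ECKO, 0.629 to 10.4 for the libraries labelled as Ezh2 ECKO, with 5.29 to 8.07 for beta-catenin GOF. Of these, *Lum* was at 0 in WT and *Slc6a13* at 0 in the libraries labelled as Ezh2 ECKO. The part of these cells in the levels of *Aldh1a1* and the other members was not tested.

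**Figure D5:**
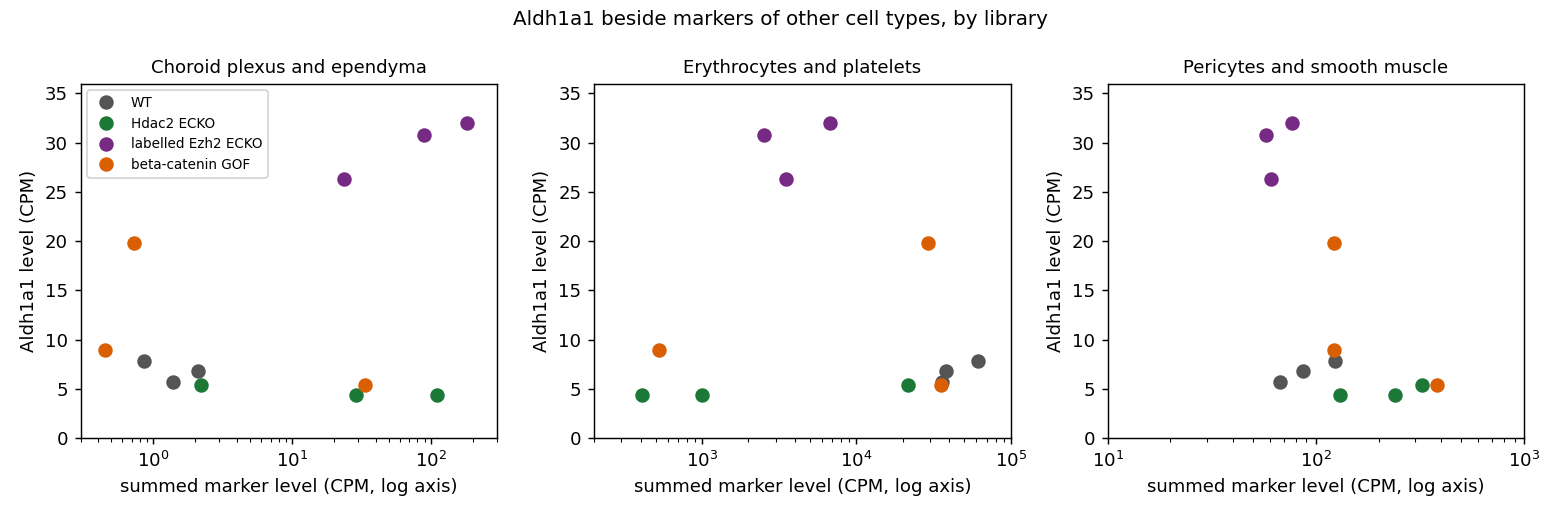
Level of Aldh1a1 (vertical axis, CPM, linear) against the summed level of markers of choroid plexus and ependyma, erythrocytes and platelets, or pericytes and smooth muscle (horizontal axes, CPM, log scale) in 12 libraries. In the choroid plexus panel, where on average most of the sum is Ttr, the libraries labelled as Ezh2 ECKO lie between 23.7 and 182 CPM. The WT libraries lie between 0.854 and 2.09 CPM there. An Hdac2 ECKO library at 111 CPM has Aldh1a1 at 4.44, and a beta-catenin GOF library at 0.726 CPM has it at 19.8.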

How the data were processed

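The authors' deposited table gives 1 value per gene and library and is titled as normalized. The values behaved as raw counts of mates: they were whole numbers with totals that differed between libraries, and 79.5% to 84.0% of values from 10 to 50 were even, against 59.4% to 67.1% from 300 to 1000. The deposited values were therefore used as counts. The kit was SMART-Seq v4 PLUS, which amplifies cDNA from few cells, with paired reads, per the labels' protocols. The submitters' processing notes name FastQC, cutadapt, STAR, featureCounts, DESeq2 and the build mm10. Annotation, strand and read filters are not given in the sources used here. Reads carried no molecular identifiers, so limits from 0 counts cover counting error only. These limits also take each count as independent, which counts of mates are not. Gene positions matched GENCODE M21 (GRCm38) for 98.4% of genes.

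Tests used the quasi-likelihood F statistic of edgeR (4.0.16, under R 4.3.3, with TMM scaling) in 1 model over 12 libraries with a term per group, on the 12577 genes that averaged 10 or more counts, with Benjamini-Hochberg adjustment over all of them and a threshold of 0.05 in each of 6 contrasts. SEs were derived from the F statistics. A called gene passed that threshold. The fit was tested on simulated counts first. Replicate libraries differed by far more than sampling noise (the lowest chi-square over its degrees of freedom was 66.3). Alternatives were DESeq2 (1.42.0), no filter or one at a mean of 50 counts, median-ratio scaling, library size alone, limma (3.58.1) with sample quality weights, only the 2 groups compared, removal of a length and GC trend, a replicate block, and each library left out. Promoter windows and the start sites came from RefSeq (GRCm38.p6), coding sequences from GENCODE.

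The members and lists were chosen with earlier results of these data known. Named genes were all members, *Aldh1a7*, pathway genes that passed against WT, the 3 of each list with the highest mean CPM per kilobase, and the 5 most and 3 least like *Aldh1a1*. Others are said to be chosen after their values were seen. One gene that this rule names is not reported here.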

Additional observations from a re-analysis of the deposited data

Results flagged for a closer look

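The level of *Aldh1a1* differed between Hdac2 ECKO and the libraries labelled as Ezh2 ECKO. The level in Hdac2 ECKO minus that in the libraries labelled as Ezh2 ECKO was -2.64 on the log2 scale, with group means of 4.77 and 29.7 CPM, and the libraries did not overlap. This difference chose the gene, so it is a description and was not tested here.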

How the results depend on the processing

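The dependence was followed over 30 log2 fold changes (members against WT, *Aldh1a1* between mutants, *Adh1*, *Adh5*, *Aldh1a7*). A fit was the same if it kept the direction and the side of the threshold. For *Aldh1a1* in the contrast that chose it, the same meant a value within the spread between libraries. Of 260 fits that kept all libraries, 236 were the same, 4 lost a call, 15 gained one and 4 turned direction. The remaining 1 moved beyond that spread: *Aldh1a1* in the contrast that chose it, at -2.40 with library size alone. With 1 library left out, 157 of 180 fits were the same, 12 lost a call, 1 gained one and 10 turned direction. The count of members called in Hdac2 ECKO against WT, 0 by edgeR, became 2 with DESeq2, 1 with no filter, 1 with a mean count of at least 50, 3 with sample quality weights and 1 with only the 2 groups compared, and ranged from 0 to 1 with a library left out (1 without WT replicate 3). In the libraries labelled as Ezh2 ECKO against WT the count of 1 became 3 with quality weights and ranged from 0 to 1 with a library left out. In beta-catenin GOF against Hdac2 ECKO, and against the libraries labelled as Ezh2 ECKO, the count of 0 became 1 with no filter and 1 with quality weights. The member was *Aldh1a1* each time, and its choice had used libraries of both contrasts. Directions turned for log2 fold changes near 0 or of low counts. With quality weights *Aldh1a3* was 0.005 and *Rxra* -0.20 in the libraries labelled as Ezh2 ECKO, and *Cyp26b1* 0.027 in beta-catenin GOF. With a library left out, the range was -2.48 to 0.67 for *Cyp26b1* in Hdac2 ECKO. In the libraries labelled as Ezh2 ECKO it was -0.32 to 0.09 for *Aldh1a3*, -0.62 to 0.44 for *Rarb* and -0.35 to 0.43 for *Rxra*. In beta-catenin GOF it was -0.06 to 0.67 for *Rdh10*, -2.06 to 0.14 for *Cyp26b1* and -0.32 to 0.23 for *Rarb*. Whether the replicate numbers pair the libraries is not settled. Same-numbered deviations had r between -0.14 and 0.27, and in no contrast was r above 0.1 in every pair. With 3 libraries a group this cannot exclude a partial pairing or batch. The replicate block moved the genes called against WT from 1157 to 1832 in Hdac2 ECKO. In the libraries labelled as Ezh2 ECKO it moved them from 129 to 536. With the replicate block, 1 member (*Aldh1a3*) was called in Hdac2 ECKO against WT, and *Cyp26b1* was 0.015 in beta-catenin GOF against WT. The causes of these shifts were not tested. Calls over all genes moved widely, from 898 to 5374 in Hdac2 ECKO, 17 to 3743 in the libraries labelled as Ezh2 ECKO and 0 to 157 in beta-catenin GOF against WT with all libraries kept, and 0 to 2216, 2 to 2329 and 0 to 4 with a library left out, against 1157, 129 and 0. With library size alone the genes called in Hdac2 ECKO against WT were 1469 higher and 357 lower, against 480 and 677, and the median of all tested genes was 0.34 in place of 0.10. Counts were low for *Rarb* (10 to 38) and *Cyp26b1* (0 to 96), and the part of depth in their spread was not tested.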

Other observations

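The genes whose level followed that of *Aldh1a1* most closely over the 12 libraries, by Pearson's r of log2(CPM + 0.5), were *Timm8a1* (0.89), *Morn4* (0.86), *Ifi202b* (0.85), *Lgals3* (0.84) and *1500011B03Rik* (0.84). *Timm8a1*, an import chaperone of mitochondria, stood at 31.4 ± 3.57 CPM in WT, 26.4 ± 1.01 in Hdac2 ECKO, 54 ± 17.5 in the libraries labelled as Ezh2 ECKO and 34 ± 7.89 in beta-catenin GOF, the same order of groups as *Aldh1a1*. *Ifi202b*, an interferon-inducible gene, stood at 16.2 ± 3.76 CPM in the libraries labelled as Ezh2 ECKO and at most 0.0932 on average in the other groups. The lowest r were those of *Sh2d4b* (-0.90), *Egf* (-0.87) and *Pkdcc* (-0.85). Ranked by Spearman's rho, the closest 5 were *Timm8a1*, *Mrpl50*, *Rpl39l*, *Cks2* and *Asns*, of which 1 was shared with the first list. Of the members, *Aldh1a3* had an r of 0.50 with *Aldh1a1*, and the other 6 tested members lay between -0.38 (*Rxra*) and 0.01 (*Rarg*). These values describe the libraries, which share their group structure, and carry no test.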
